A study of Mus musculus with 22 samples.

Results

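The 42 type I interferon response genes described here are known interferon-stimulated genes, and they were picked by symbol from the deposited expression table, which lists 13594 genes. The list was chosen with earlier results of these data known, so its shares set beside those of all genes are descriptive. All 42 members were in the table and all 42 entered the tests. They were measured by RNA sequencing in haematopoietic stem cells (HSCs) of mice, gated as KSL cells (lineage negative, Kit positive, Sca-1 positive) without CD48 and with CD150. Donor mice lacked Cd53 (KO) or were wild-type (WT) littermates, given granulocyte colony-stimulating factor (G-CSF) over 7 days, or saline as its control. Cd53 encodes a membrane tetraspanin of blood cells, and G-CSF is the growth factor of granulocytes, used to mobilise stem cells from marrow into blood and spleen.

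The 22 libraries form 6 groups. These are KO spleen after G-CSF (n = 4), WT spleen after G-CSF (n = 4), KO marrow after G-CSF (n = 4), WT marrow after G-CSF (n = 3), KO marrow after saline (n = 3) and WT marrow after saline (n = 4). None of the 22 libraries is from spleen after saline, so spleen is compared with marrow under G-CSF alone. The labels used here give no age, sex or strain, and do not say whether a library comes from 1 animal or a pool. They also do not say whether replicates came from separate mice, so the p-values measure the spread between these samples. G-CSF marrow and spleen libraries of a genotype carry the same replicate numbers, and whether these mark the same mouse is not given. The main fit treats libraries as independent, and fits with the number as a block are given at the end. Values are log2 CPM (reads scaled to a common effective library size), and each library held 22578088 to 31268856 reads in the listed genes, with 1 read worth 0.0306 to 0.0465 CPM.

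Type I interferons are cytokines of antiviral defence. They bind a receptor of the subunits IFNAR1 and IFNAR2, whose kinases JAK1 and TYK2 phosphorylate STAT proteins such as STAT2. With IRF9, STAT2 is part of a complex, ISGF3, that binds interferon-stimulated response elements in promoters and switches on a set of genes that sense, cut, trap or tag viral material. Some of these genes answer to interferon gamma as well. In HSCs, acute type I interferon is known to push quiescent cells into cycle, and part of the set is known to be expressed in stem cells without infection.

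Promoter letters are shown for 5 members because the response element is the sequence through which ISGF3 is known to act. The 5 were picked for holding its core, among members chosen by rule for values in every library. Of the others so chosen, Xaf1, Irf7 and Irf9 had windows without the core, and Rtp4, Dhx58 and Usp18 had no window. Each stretch is 150 bases long and ends 1 base before the RefSeq start site on build GRCm38.p6, except that of Stat2, which runs from -250 to -101, written 5′ to 3′ on the gene's own strand. Capitals mark matches to the core GAAANNGAAA, or to its reverse complement where the capitals begin with TTTC.

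Gbp3 (chr3:142559894-142560043, plus strand): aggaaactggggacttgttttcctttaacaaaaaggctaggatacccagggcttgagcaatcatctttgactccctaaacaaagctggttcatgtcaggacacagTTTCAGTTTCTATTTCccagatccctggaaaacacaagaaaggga
Ifit1 (chr19:34640739-34640888, plus strand): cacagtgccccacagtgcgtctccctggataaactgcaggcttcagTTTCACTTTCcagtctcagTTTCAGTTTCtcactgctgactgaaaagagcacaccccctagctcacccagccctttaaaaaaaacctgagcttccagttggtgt
Oas1a (chr5:120907526-120907675, minus strand): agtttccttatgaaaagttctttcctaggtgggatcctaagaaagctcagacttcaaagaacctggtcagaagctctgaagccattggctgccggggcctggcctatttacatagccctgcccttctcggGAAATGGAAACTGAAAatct
Isg15 (chr4:156200819-156200968, minus strand): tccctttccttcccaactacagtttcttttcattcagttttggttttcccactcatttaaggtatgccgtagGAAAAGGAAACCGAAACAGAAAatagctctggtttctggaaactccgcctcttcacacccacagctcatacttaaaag
Stat2 (chr10:128270248-128270397, plus strand): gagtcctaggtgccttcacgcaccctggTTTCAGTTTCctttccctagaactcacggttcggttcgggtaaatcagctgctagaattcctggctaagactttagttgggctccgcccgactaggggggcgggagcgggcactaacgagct

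In these stretches the cores overlap each other in Gbp3, Oas1a and Isg15. Isg15 holds 3 of them, starting at -78, -72 and -66 from the start site. Oas1a holds 2, at -20 and -14, and Gbp3 holds 2, at -45 and -39. Ifit1 holds 2 separate cores, at -104 and -85, and Stat2 holds 1, farther out at -222. RefSeq promoter windows, from 250 bases before to 50 bases after the start, were found for 33 of the 42 members, as 40 windows. Searched on both strands, the core was in 18 of the 40 windows (45%), against 3.44% of all 32851 windows. The longer GAAANNGAAACT, which contains the core, was in 11 of the 40 (27.5%), against 0.271% of all windows. The gamma-activated site TTCNNNGAA was in 8 of the 40 (20%), against 8.30% of all windows. A match is a description of letters, and the absence of one says only that the letters are not in that window.

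Cd53 and the HSC markers were checked first. Cd53 was 6.18 to 6.40 log2 CPM in KO spleen and 9.51 to 9.77 in WT spleen. In G-CSF marrow it was 6.06 to 6.59 in KO and 9.57 to 9.83 in WT. In saline marrow it was 2.02 to 3.61 in KO and 5.75 to 6.175 in WT. No KO library overlapped a WT library within any of the 3 settings. Cd53 RNA was still detected in KO, and was higher in G-CSF marrow than in saline marrow in both genotypes. Its log2 fold change of KO over WT was -3.33 ± 0.22 (SE) in spleen, -3.41 ± 0.24 in G-CSF marrow and -2.84 ± 0.24 in saline marrow. The HSC markers were Kit, Ly6a, Slamf1, Procr, Mecom, Hlf and Hoxb5. They summed to 1952 to 2528 CPM in KO spleen and 1774 to 2225 in WT spleen. In G-CSF marrow the sums were 1961 to 2449 in KO and 2104 to 2364 in WT. In saline marrow they were 2237 to 2800 in KO and 2305 to 2701 in WT. Kit lay lower in WT spleen than in WT G-CSF marrow (8.99 to 9.68 against 9.78 to 10.02 log2 CPM). Slamf1 lay higher there, and both overlapped in KO. Ly6a lay higher in G-CSF marrow than in saline marrow in both genotypes. Markers of other cell types, given beside the results below, summed to at most 250.8 CPM per list in any library.

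The spleen libraries carried the highest levels of most members. The group mean was highest in KO spleen for 21 members, in WT spleen for 13 and in KO saline marrow for 8, so a spleen group was highest for 34 of 42 (81.0%), against 31.7% of all 13571 genes tested. The lowest mean was in WT G-CSF marrow for 18 members and in WT saline marrow for 18. The median of the 42 group means was 7.08 log2 CPM in KO spleen, 6.96 in WT spleen, 6.74 in KO G-CSF marrow, 6.58 in WT G-CSF marrow, 6.59 in KO saline marrow and 6.59 in WT saline marrow. In 8 members (Oas1a, Oasl2, Xaf1, Rtp4, Dhx58, Ifit1, Ifi35 and Ifi27) all 8 spleen libraries lay above all 14 marrow libraries, which is 19.0% of members, against 0.442% of all genes.

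**Figure D1:**
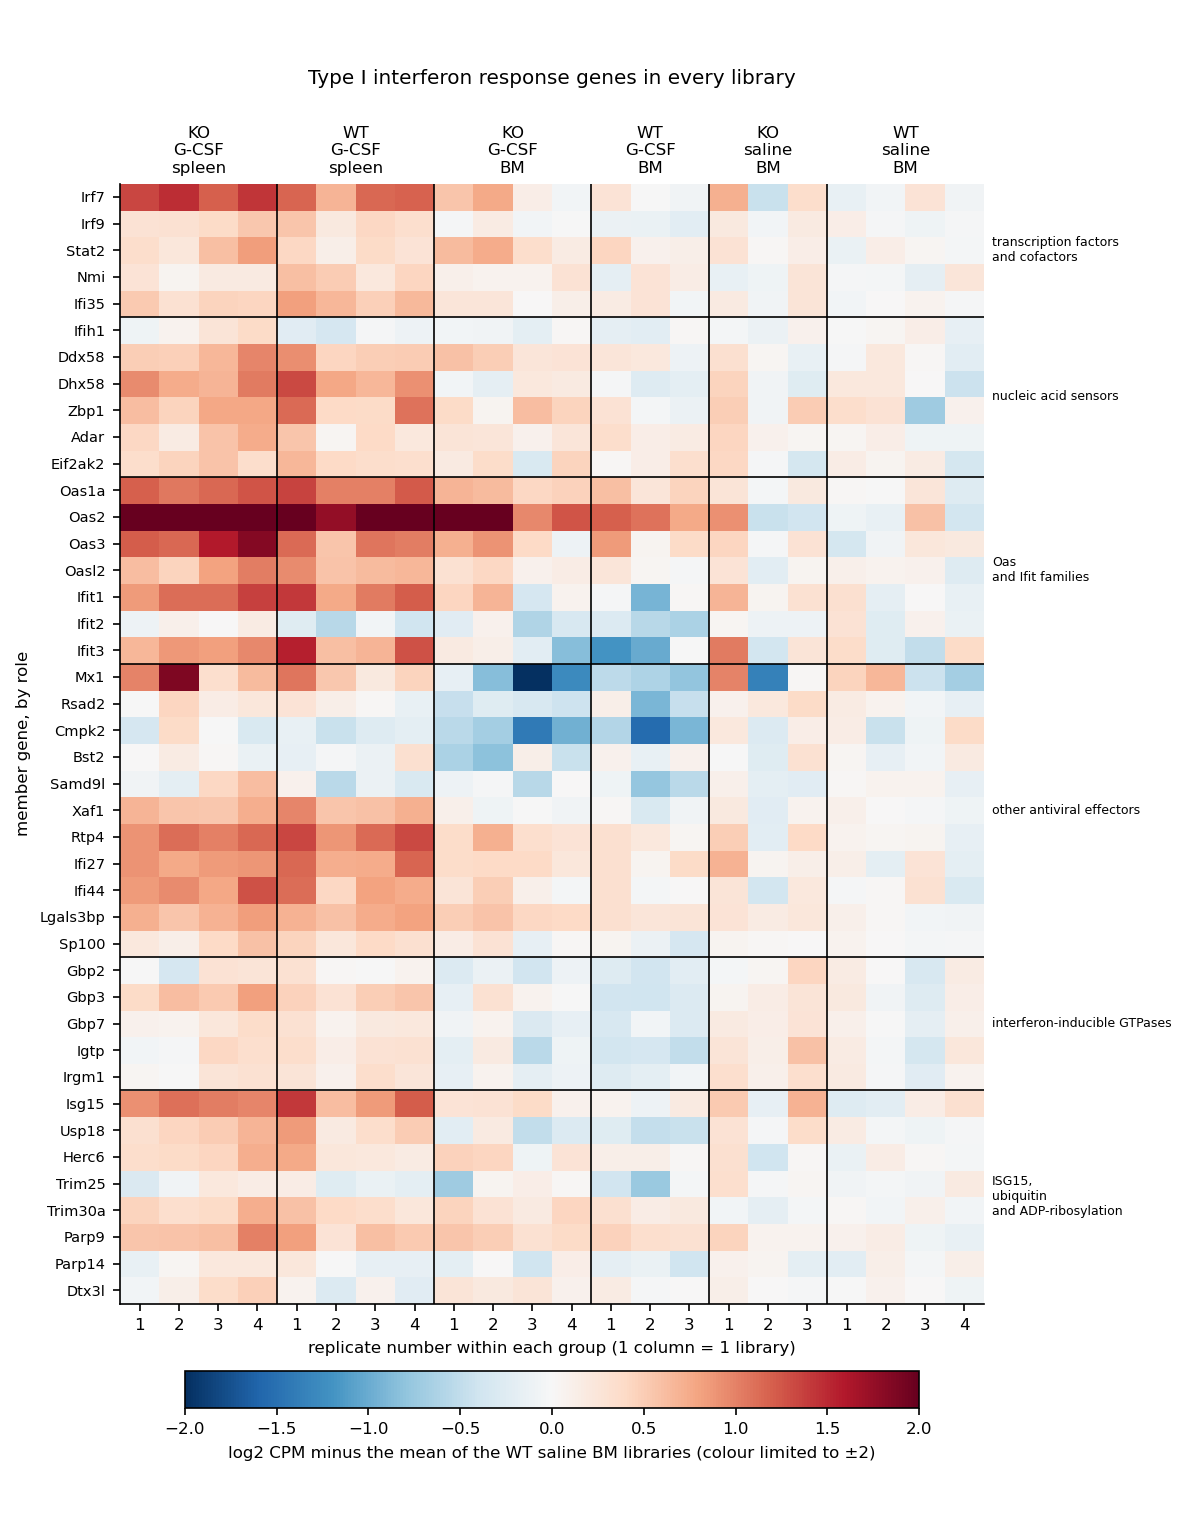
Heat map of the 42 members (rows, grouped by role) in the 22 libraries (columns, grouped in the order KO spleen, WT spleen, KO G-CSF marrow, WT G-CSF marrow, KO saline marrow, WT saline marrow). Colour is log2 CPM minus the mean of WT saline marrow, limited at 2 in either direction. The 8 spleen columns are the warmest for most rows, and Oas2 has the widest span of group means, at 2.58.

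The members differ widely in level. Per kilobase of exon, the highest mean over the groups was that of Lgals3bp, a secreted galectin-binding glycoprotein, at 7.89 log2 CPM per kilobase. Ifi27 (6.85), a mitochondrial interferon-induced protein, and Rtp4 (6.84), a receptor transporter that limits flaviviruses, came next. The lowest on that scale were Zbp1 (2.08), a sensor of Z-form nucleic acids, Cmpk2 (1.19), a mitochondrial nucleotide kinase, and Mx1 (0.18), an antiviral dynamin-like GTPase. Mx1 is known to be defective in many laboratory mouse strains. It rested on 30 to 388 reads per library (median 119.5), the fewest of any member, and Ifit3 on 99 to 602. The span between the highest and the lowest group mean was widest for Oas2 (2.58 log2 CPM), Mx1 (2.07) and Ifit3 (1.76).

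Spleen against marrow after G-CSF, within KO and within WT, asks how HSCs found in the spleen differ from those found in marrow. In KO, 13 of 42 members rose in spleen (31.0%) and 0 fell, where 0.951% of all genes rose and 0.317% fell (limma with Benjamini-Hochberg adjustment over 13571 genes, adjusted p under 0.05). In WT, 23 rose (54.8%) and 0 fell, where 6.93% of all genes rose and 6.83% fell. The median log2 fold change of members was 0.34 in KO (0.01 over all genes) and 0.50 in WT (0.02 over all genes). Positive values were found for 42 of 42 members in KO, against 51.0% of all genes, and for 39 of 42 in WT, against 52.5%. In bulk libraries, more cells that express a gene and more of its RNA per cell cannot be told apart.

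The same counts without a model gave 21 members in KO whose spleen libraries all lay above all G-CSF marrow libraries (3.38% of all genes) and 27 in WT (14.5% of all genes). No member had the opposite arrangement. Both comparisons called 11 members higher, which is 84.6% of the KO list, 47.8% of the WT list and 26.2% of all members, against 0.671% of all genes. The 11 were Xaf1, Rtp4, Gbp3, Dhx58, Ifit1, Oas1a, Usp18, Irf9, Isg15, Irf7 and Ifi44.

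Among the transcription factors and cofactors, 2 of 5 rose in KO spleen and 3 of 5 in WT spleen. Irf7 (chromosome 7, 141262706 to 141266481, minus strand) is the factor that amplifies interferon production. It had 8.16, 8.30, 8.02 and 8.25 log2 CPM in KO spleen, against 7.38, 7.58, 6.95 and 6.77 in KO G-CSF marrow. In WT it had 7.99, 7.50, 7.97 and 8.004 in spleen, against 7.10, 6.81 and 6.75 in G-CSF marrow. Saline marrow had 7.54, 6.38 and 7.17 in KO and 6.68, 6.77, 7.10 and 6.75 in WT. Every spleen library lay above every G-CSF marrow library of its genotype, with the second WT spleen library nearest to marrow. The log2 fold change was 1.01 ± 0.19 in KO (2.01-fold, limma adjusted p = 0.00684) and 0.98 ± 0.21 in WT (1.97-fold, adjusted p = 0.00464).

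Irf9, the DNA-binding subunit of ISGF3, had 8.36, 8.39, 8.47 and 8.61 log2 CPM in KO spleen, against 8.05, 8.25, 8.02 and 8.07 in KO G-CSF marrow. WT libraries had 8.64, 8.27, 8.50 and 8.42 in spleen, against 7.96, 7.95 and 7.87 in G-CSF marrow. Saline marrow had 8.27, 8.03 and 8.25 in KO and 8.22, 8.06, 7.99 and 8.05 in WT. The spleen and G-CSF marrow libraries did not overlap in either genotype, although the step was small. It was 0.36 ± 0.09 in KO (limma adjusted p = 0.0394) and 0.53 ± 0.09 in WT (adjusted p = 0.00145). The KO call ended in 7 of the 8 fits that left out 1 library, all but that without G-CSF marrow replicate 2, with adjusted p of 0.0531 to 0.139 (limma), and under 5 of 11 other settings.

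Stat2, the partner of IRF9 in that complex, did not pass in either genotype. It had 6.76, 6.64, 7.01 and 7.25 log2 CPM in KO spleen, against 7.04, 7.14, 6.76 and 6.57 in KO G-CSF marrow. The WT values were 6.83, 6.52, 6.80 and 6.68 in spleen, against 6.84, 6.49 and 6.53 in G-CSF marrow. Saline marrow had 6.69, 6.44 and 6.54 in KO and 6.28, 6.54, 6.45 and 6.38 in WT. Spleen and G-CSF marrow overlapped, with log2 fold changes of 0.04 ± 0.13 in KO (limma adjusted p = 0.959) and 0.09 ± 0.14 in WT (adjusted p = 0.73). Ifi35, a leucine zipper partner of Nmi, had 0.27 ± 0.09 in KO (adjusted p = 0.204) and rose by 0.52 ± 0.10 in WT.

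Of the 6 nucleic acid sensors, 1 rose in KO spleen and 2 in WT spleen. Dhx58 encodes LGP2, a helicase that tunes the cytosolic RNA sensors. It had 7.65, 7.45, 7.38 and 7.75 log2 CPM in KO spleen, against 6.65, 6.52, 6.91 and 6.89 in KO G-CSF marrow. In WT it had 8.02, 7.48, 7.37 and 7.62 in spleen, against 6.68, 6.44 and 6.51 in G-CSF marrow. Saline marrow had 7.15, 6.64 and 6.46 in KO and 6.92, 6.92, 6.71 and 6.28 in WT. All spleen libraries lay above all marrow libraries, saline included. Its log2 fold change was 0.81 ± 0.16 in KO (1.76-fold, limma adjusted p = 0.00905) and 1.08 ± 0.17 in WT (2.11-fold, adjusted p = 0.000624). Ddx58, which encodes the RNA sensor RIG-I, had 0.25 ± 0.14 in KO (adjusted p = 0.504) and rose by 0.47 ± 0.15 in WT (adjusted p = 0.0346). The other 4 sensors, Ifih1 (MDA5), Zbp1, Adar (an RNA-editing deaminase) and Eif2ak2 (the kinase PKR), had 0.23 to 0.27 in KO and -0.05 to 0.71 in WT, with no call. Chrnb2, on the opposite strand, overlaps 16.8% of the exon bases of Adar.

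The Oas and Ifit families gave 3 calls of 7 in KO spleen and 5 of 7 in WT spleen. Oas proteins make the messenger that activates RNase L, and Ifit proteins bind foreign RNA. Oas1a had 6.85, 6.71, 6.80 and 6.92 log2 CPM in KO spleen, against 6.33, 6.29, 6.06 and 6.12 in KO G-CSF marrow. Among WT libraries it had 7.01, 6.66, 6.66 and 6.88 in spleen, against 6.26, 5.90 and 6.10 in G-CSF marrow. Saline marrow had 5.92, 5.61 and 5.85 in KO and 5.68, 5.64, 5.90 and 5.40 in WT. Its groups stepped up in order of saline marrow, G-CSF marrow and spleen, with no library of 1 tier overlapping the next in KO, and with the lowest WT G-CSF marrow library level with the highest WT saline one. The spleen step was 0.62 ± 0.12 in KO (limma adjusted p = 0.0053) and 0.72 ± 0.12 in WT (adjusted p = 0.00122).

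Ifit1 had 6.35, 6.61, 6.61 and 6.86 log2 CPM in KO spleen, against 5.92, 6.18, 5.16 and 5.57 in KO G-CSF marrow. In WT its levels were 6.92, 6.25, 6.53 and 6.71 in spleen, against 5.47, 4.56 and 5.53 in G-CSF marrow. Saline marrow had 6.17, 5.55 and 5.80 in KO and 5.82, 5.31, 5.50 and 5.35 in WT. Spleen libraries lay above all marrow libraries in both genotypes. Limma gave a log2 fold change of 0.90 ± 0.22 in KO (1.86-fold, adjusted p = 0.0382) and 1.42 ± 0.23 in WT (2.67-fold, adjusted p = 0.000774). Its KO call ended in 5 of 8 omissions (G-CSF marrow replicates 3 and 4, and each spleen replicate except 1), with adjusted p of 0.0889 to 0.121 (limma). Ifit3 had 1.02 ± 0.31 in KO (adjusted p = 0.133) and rose by 1.76 ± 0.34 in WT (3.39-fold), the highest fold of the 23 members called there, although reads of Ifit3 and its close copy Ifit3b may be split uncertainly. Oas3 rose in KO by 0.97 ± 0.21 and had 0.52 ± 0.22 in WT (adjusted p = 0.127). Oas2 had 0.99 ± 0.29 in KO (adjusted p = 0.106) and rose by 1.17 ± 0.31 in WT. Ifit2 was not called in either (0.31 ± 0.14 in KO and 0.17 ± 0.15 in WT).

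Among the other antiviral effectors, 4 of 11 rose in KO spleen and 7 of 11 in WT spleen. Xaf1 (chromosome 11, 72301629 to 72313733, plus strand) encodes a binding partner of the apoptosis inhibitor XIAP and had the smallest p of all members in both genotypes. It had 6.80, 6.68, 6.67 and 6.85 log2 CPM in KO spleen, against 6.23, 6.04, 6.12 and 6.06 in KO G-CSF marrow. In WT it had 7.10, 6.68, 6.71 and 6.83 in spleen, against 6.14, 5.81 and 6.05 in G-CSF marrow. Saline marrow had 6.33, 5.90 and 6.19 in KO and 6.23, 6.13, 6.11 and 6.04 in WT. All 14 marrow libraries lay between 5.81 and 6.33, and all 8 spleen libraries lay above them. The log2 fold change was 0.64 ± 0.11 in KO (1.56-fold, limma adjusted p = 0.0018) and 0.83 ± 0.12 in WT (1.77-fold, adjusted p = 0.000153).

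Rtp4 (chromosome 16, 23520291 to 23614222, plus strand) had 8.33, 8.54, 8.42 and 8.57 log2 CPM in KO spleen, against 7.79, 8.14, 7.76 and 7.70 in KO G-CSF marrow. WT libraries had 8.76, 8.31, 8.56 and 8.74 in spleen, against 7.74, 7.63 and 7.47 in G-CSF marrow. Saline marrow had 7.91, 7.21 and 7.83 in KO and 7.50, 7.46, 7.47 and 7.26 in WT. The spleen libraries again stood clear of all marrow libraries, with a log2 fold change of 0.62 ± 0.13 in KO (limma adjusted p = 0.0175) and 0.98 ± 0.14 in WT (adjusted p = 0.000263). A predicted gene on the same strand covers 13.9% of the exon bases of Rtp4. Mx1 rose in KO by 2.07 ± 0.45 (4.19-fold, adjusted p = 0.018) and had 1.20 ± 0.48 in WT (adjusted p = 0.0995). Ifi44 rose in both, by 0.76 ± 0.17 in KO and 0.68 ± 0.18 in WT. Lgals3bp had 0.23 ± 0.07 in KO (adjusted p = 0.133) and rose by 0.43 ± 0.08 in WT.

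Interferon-inducible GTPases, which attack the vacuoles of intracellular pathogens, gave 1 call of 5 in KO spleen and 4 of 5 in WT spleen. Gbp3, a guanylate-binding protein, had 7.28, 7.51, 7.42 and 7.71 log2 CPM in KO spleen, against 6.72, 7.20, 6.97 and 6.88 in KO G-CSF marrow. The WT values were 7.35, 7.18, 7.39 and 7.45 in spleen, against 6.51, 6.50 and 6.62 in G-CSF marrow. Saline marrow had 6.95, 7.03 and 7.15 in KO and 7.08, 6.83, 6.63 and 7.03 in WT. Spleen libraries lay above G-CSF marrow libraries in each genotype, and the highest KO marrow library slightly exceeded the lowest WT spleen library. Its log2 fold change was 0.54 ± 0.11 in KO (limma adjusted p = 0.0147) and 0.80 ± 0.12 in WT (adjusted p = 0.000366). Igtp, Gbp7 and Irgm1 had 0.32, 0.30 and 0.24 in KO with no call, and rose by 0.67, 0.41 and 0.40 in WT.

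Of the 8 members in the ISG15, ubiquitin and ADP-ribosylation group, Isg15 and Usp18 rose in both genotypes and the other 6 in neither. Isg15, a ubiquitin-like tag joined to proteins, had 5.37, 5.55, 5.47 and 5.43 log2 CPM in KO spleen, against 4.73, 4.74, 4.84 and 4.54 in KO G-CSF marrow. In WT it had 5.86, 5.06, 5.31 and 5.67 in spleen, against 4.53, 4.35 and 4.63 in G-CSF marrow. Saline marrow had 4.98, 4.29 and 5.15 in KO and 4.19, 4.24, 4.59 and 4.77 in WT. KO spleen libraries lay within a narrow band and WT spleen libraries over a wide one, both above G-CSF marrow of the same genotype. Limma gave a log2 fold change of 0.74 ± 0.18 in KO (adjusted p = 0.0372) and 0.97 ± 0.19 in WT (adjusted p = 0.00299). In KO the call ended in 7 of 8 fits without 1 library, all but that without G-CSF marrow replicate 3, with adjusted p of 0.0702 to 0.111 (limma), and under 2 of 11 other settings.

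Usp18, the protease that removes ISG15 and also dampens the receptor, had 6.54, 6.65, 6.73 and 6.91 log2 CPM in KO spleen, against 6.01, 6.40, 5.74 and 5.94 in KO G-CSF marrow. Among WT libraries it had 7.07, 6.40, 6.58 and 6.73 in spleen, against 5.98, 5.75 and 5.77 in G-CSF marrow. Saline marrow had 6.52, 6.21 and 6.59 in KO and 6.38, 6.18, 6.13 and 6.20 in WT. In KO the saline marrow libraries overlapped those of G-CSF marrow and of spleen, and in WT they lay between those groups. G-CSF marrow and spleen of the same genotype did not overlap. The log2 fold change of spleen over G-CSF marrow was 0.69 ± 0.14 in KO (limma adjusted p = 0.0125) and 0.86 ± 0.15 in WT (adjusted p = 0.0014). Herc6, Trim25, Trim30a, Parp9, Parp14 and Dtx3l, which include ubiquitin ligases and ADP-ribosyltransferases, had 0.03 to 0.25 in KO and -0.14 to 0.29 in WT. Parp9 and Dtx3l share 458 exon bases on opposite strands and cannot be fully told apart where strand was not used.

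**Figure D2:**
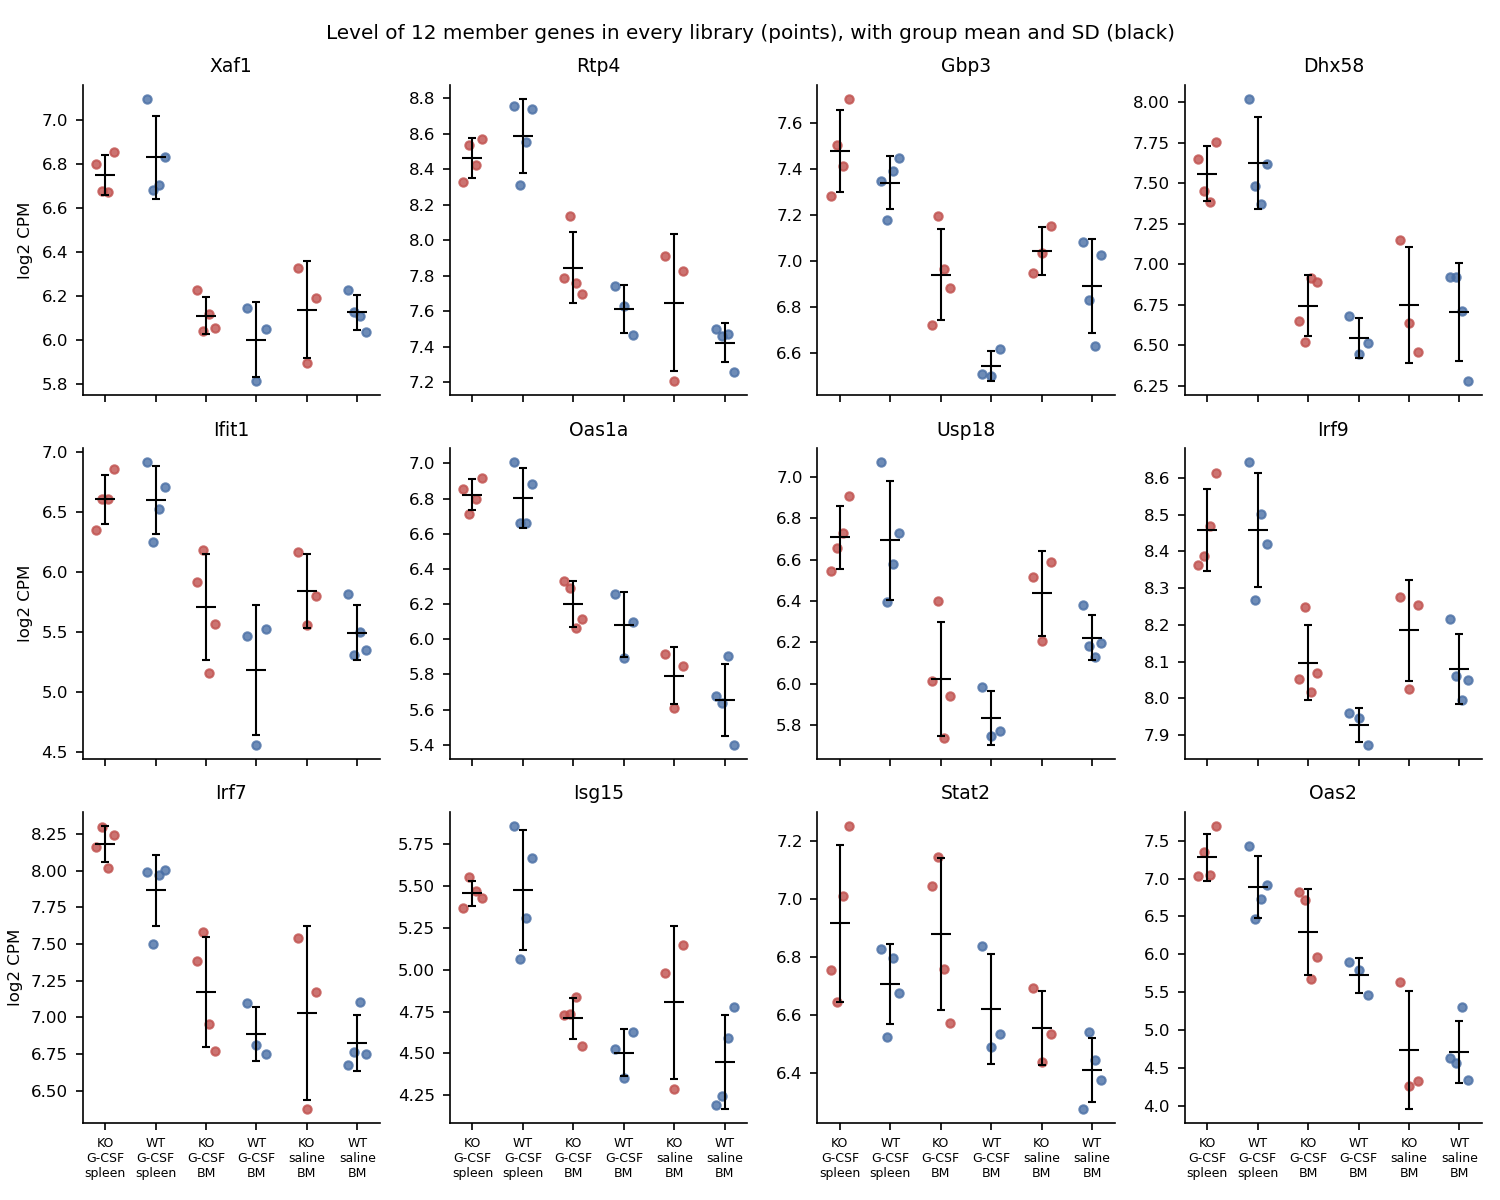
Level of 12 members in every library (log2 CPM on the vertical axis, 1 panel per gene, 6 groups on the horizontal axis, spleen groups first). Points are libraries, and the bar shows the group mean with its SD. In the panels of Xaf1, Rtp4, Dhx58, Ifit1 and Oas1a all spleen points lie above all marrow points, while those of Stat2 overlap.

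**Figure D3:**
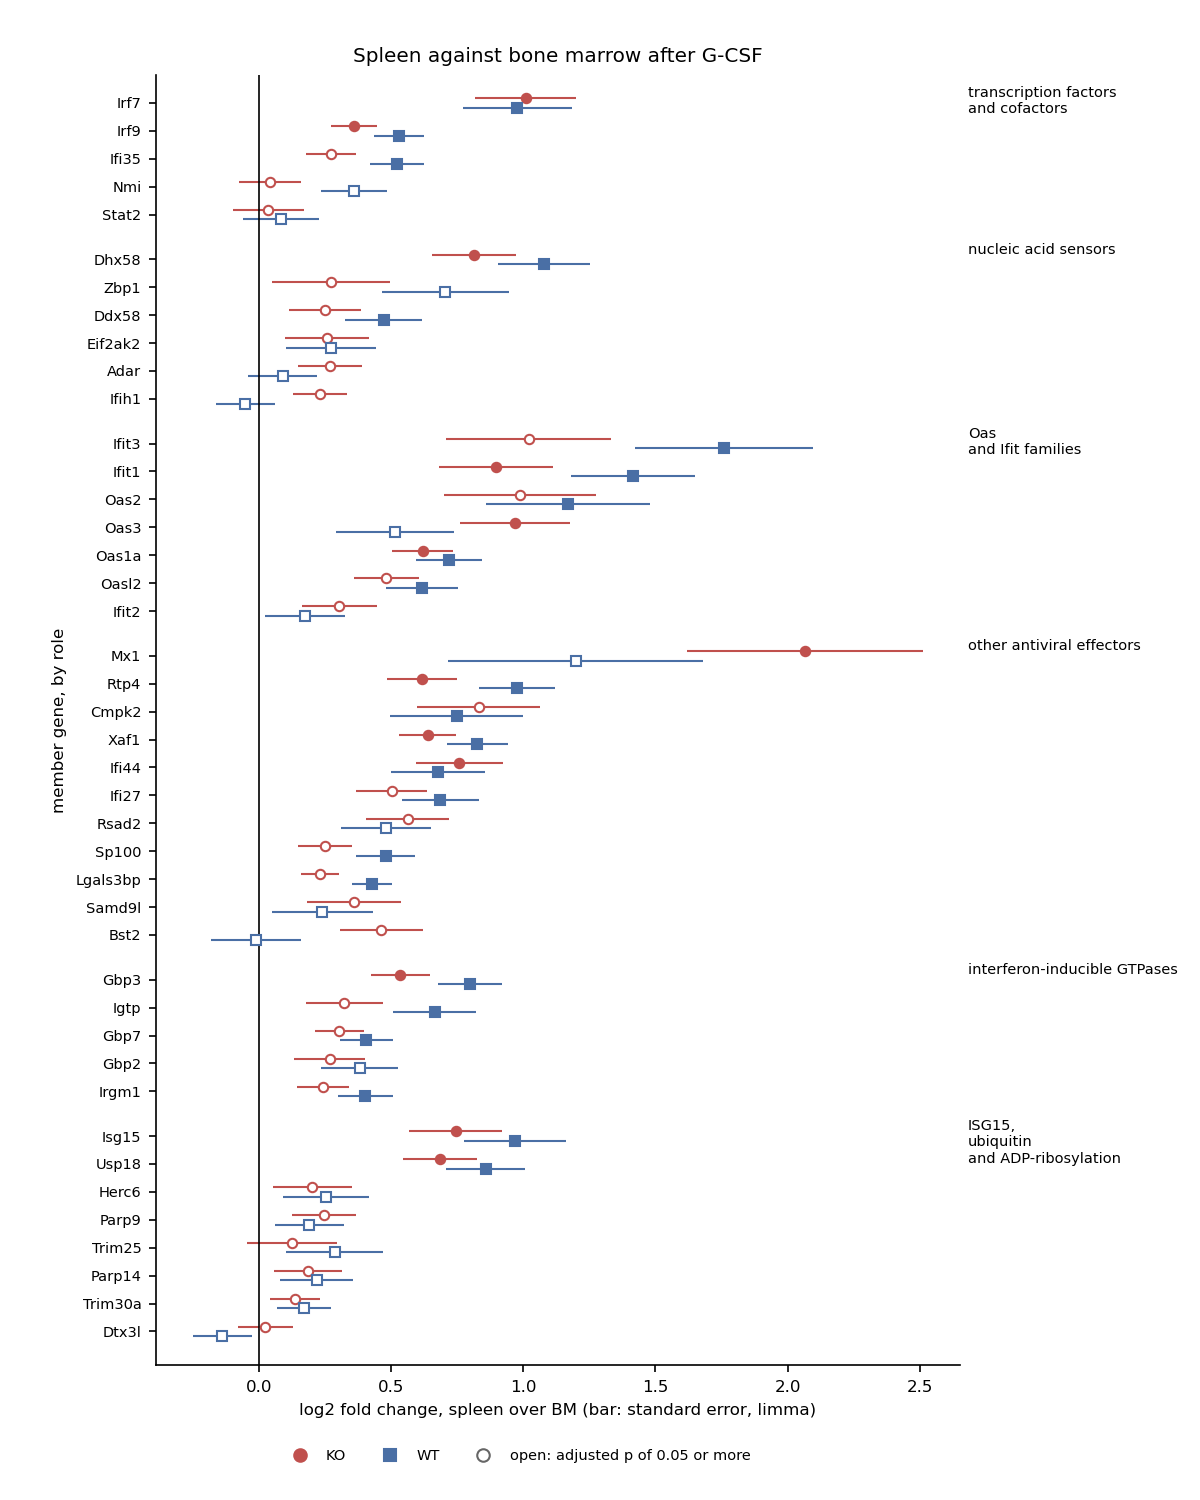
Log2 fold change of spleen over marrow after G-CSF for the 42 members, with the SE from limma as bars. Circles are KO and squares are WT, and filled symbols have an adjusted p under 0.05, which holds for 13 members in KO and 23 in WT.

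Of the 42 members, 17 were called in neither genotype. Just outside the threshold in KO were Oasl2 (limma adjusted p = 0.0567) and Ifi27 (adjusted p = 0.0708). In WT the nearest were Zbp1 (adjusted p = 0.0531), Nmi (adjusted p = 0.0554) and Rsad2 (adjusted p = 0.0593), which encodes viperin. The KO count was 5 without KO spleen replicate 4, 7 without KO G-CSF marrow replicate 4 and 8 without KO spleen replicate 2, and 7 or 8 under 3 other model settings. The WT count stayed between 18 and 24 when single libraries were left out. Of the other KO calls, those of Rtp4, Oas3, Mx1 and Ifi44 ended in 3 of 8 omissions each, that of Gbp3 in 2 and that of Usp18 in 1 (KO spleen replicate 4), with limma adjusted p of at most 0.0904.

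Members with and without a promoter core were both among those called. Of the 17 members with the core in a window, 5 rose in KO spleen and 9 in WT spleen. Of the 16 with windows but no core, 4 rose in KO and 9 in WT. Among those with the core, Isg15 was called in both genotypes and Stat2 in neither.

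The difference in the spleen step between the genotypes was tested as an interaction, and 0 of 42 members and 0 of 13571 genes (0%) passed. At an unadjusted p under 0.05 the counts were 0 members and 1758 genes. The median interaction of members was -0.12 (-0.01 over all genes), positive in 13 of 42, against 48.7% of all genes. The smallest limma adjusted p of a member was 0.390, shared by Bst2 (0.47 ± 0.23), which encodes tetherin, among others. The members called in 1 genotype alone are therefore not shown to differ between genotypes. With libraries scaled to their listed genes, 18 of 42 were positive and the median was -0.06 over members and 0.05 over all genes. At equal medians 8 were positive, and the median was -0.24 over members and -0.13 over all genes.

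Markers of other cells moved in part with tissue. The macrophage and monocyte list, of which 6 of 8 markers had values, summed to 193.6 to 218.8 CPM in KO spleen and 215.6 to 244.2 in WT spleen. It summed to 103.6 to 142.7 CPM in KO G-CSF marrow, 118.7 to 133.5 in WT G-CSF marrow, 54.3 to 74.1 in KO saline marrow and 40.9 to 68.5 in WT saline marrow. Cd68 carried that step, at 0.78 ± 0.11 in KO and 1.02 ± 0.12 in WT, while C1qb (-3.09 ± 0.86) and Vcam1 (-1.78 ± 0.46) fell in WT spleen. For T and NK cells, 2 of 6 markers had values, Klrb1c and Nkg7, while Cd3e, Cd3d, Cd3g and Il7r had none. The 2 summed to 161.1 to 198.8 CPM in KO spleen and 188.9 to 212.9 in WT spleen. In G-CSF marrow they summed to 135.3 to 188.6 in KO, which overlapped spleen, and 145.5 to 154.3 in WT, which did not. One of them, Klrb1c, which encodes the NK cell receptor NK1.1, lay at 5.86 to 6.10 log2 CPM in KO spleen and 6.01 to 6.31 in WT spleen, against 3.99 to 4.61 in KO G-CSF marrow and 4.32 to 5.05 in WT G-CSF marrow. It rose in spleen by 1.57 ± 0.20 in KO (limma adjusted p = 5.83e-05) and 1.35 ± 0.21 in WT (adjusted p = 0.000518). Nkg7 is not given alone here. The sum of the 2 overlapped between the tissues in KO, so the rise of Klrb1c does not stand for the list. For plasmacytoid dendritic cells, a main source of type I interferon, 2 of 6 markers had values, Ccr9 and Tcf4. Siglech, Klk1, Cox6a2 and Spib had none, so the sum rests on those 2 alone. The sum was 218.6 to 236.1 CPM in KO spleen and 209.3 to 235.2 in WT spleen. In G-CSF marrow it was 186.7 to 233.1 in KO and 187.7 to 191.1 in WT. The erythroid list (2 of 5) summed to 60.9 to 103.5 CPM in KO spleen and 73.2 to 96.0 in WT spleen, against 45.0 to 61.6 in KO G-CSF marrow and 54.3 to 96.3 in WT G-CSF marrow. Over all libraries the neutrophil list (5 of 7) summed to 3.50 to 129.3 CPM, the B cell list (2 of 6) to 101.2 to 153.8 and the stroma and endothelium list (2 of 5) to 90.0 to 250.8. The neutrophil sum of 129.3 was in WT saline marrow, where the median was 6.49, and no other group exceeded 29.1. None of the markers with values was at 0 in every library. The part of these cells in the spleen result was not tested.

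G-CSF against saline in marrow asks how HSCs found in marrow differ with the treatment. Few members moved, and in both directions. In KO, 4 members rose and 3 fell, where 5.58% of all genes rose and 4.31% fell. In WT, 3 rose and 2 fell, where 5.63% rose and 5.63% fell. The shares of members called were thus near those of all genes. The median log2 fold change was 0.01 in KO (-0.01 over all genes) and 0.03 in WT (-0.01 over all genes), and 4 members lay wholly above and 5 wholly below the saline libraries in each genotype. Over all genes, 8.81% lay wholly above and 8.84% wholly below in KO, and 11.2% above and 11.2% below in WT, so these counts were near the background too.

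Oas1a, Oas2 and Lgals3bp rose and Cmpk2 fell in both genotypes. Oas2, whose values in every library were chosen for display after they were seen, had 6.82, 6.72, 5.67 and 5.97 log2 CPM in KO G-CSF marrow, against 5.63, 4.26 and 4.32 in KO saline marrow. In WT its levels were 5.90, 5.79 and 5.47 in G-CSF marrow, against 4.63, 4.57, 5.30 and 4.34 in saline marrow. Spleen had 7.03, 7.36, 7.05 and 7.70 in KO and 7.44, 6.47, 6.73 and 6.92 in WT. G-CSF marrow libraries lay above saline libraries in both genotypes, with 1 saline library of each (5.63 in KO and 5.30 in WT) close to the lowest treated one. The log2 fold change was 1.56 ± 0.31 in KO (2.95-fold, limma adjusted p = 0.00186) and 1.01 ± 0.31 in WT (2.02-fold, adjusted p = 0.0376). In KO the call held in all 7 omissions, and in WT it ended in 6 of 7, all but that of saline replicate 3, with adjusted p of 0.0561 to 0.124 (limma).

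Cmpk2, the nucleotide kinase next to Rsad2 on chromosome 12, moved the other way. It had 3.08, 2.94, 2.20 and 2.65 log2 CPM in KO G-CSF marrow, against 3.83, 3.34 and 3.75 in KO saline marrow. In WT it had 3.04, 2.08 and 2.70 in G-CSF marrow, against 3.76, 3.17, 3.53 and 4.002 in saline marrow. No treated library overlapped a saline library in either genotype. Its log2 fold change was -0.93 ± 0.25 in KO (limma adjusted p = 0.0202) and -1.01 ± 0.25 in WT (adjusted p = 0.0103).

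Oas1a rose by 0.41 ± 0.12 in KO and 0.43 ± 0.12 in WT, and Lgals3bp by 0.25 ± 0.08 in KO and 0.28 ± 0.08 in WT. The Oas1a call ended in 4 of 7 omissions in each genotype. That of Lgals3bp ended in 5 of 7 in KO and 4 of 7 in WT. Trim30a, a regulator of Toll-like receptor signalling in mice, rose in KO (0.42 ± 0.10) and had 0.22 ± 0.10 in WT. Rsad2 (-0.59) and Irgm1 (-0.35), an immunity-related GTPase, fell in KO, and their WT values were -0.42 and -0.17. Ifit2 had -0.21 in KO and fell by 0.49 in WT (limma adjusted p = 0.0399). The KO call of Rsad2 and the WT call of Ifit2 each ended in 4 of 7 omissions. All 5 GTPases were below 0 in both genotypes, and under each of 3 scalings, with 1 of them called in KO and 0 in WT. The counts were 4 and 3 when libraries were scaled to their listed genes, and 0 and 0 at equal medians. The KO call of Irgm1 also ended in 5 of 7 omissions, all but those of saline replicate 2 and G-CSF marrow replicate 2 (limma adjusted p of 0.0573 to 0.137). Irf7, Irf9, Stat2 and Isg15 had -0.09 to 0.32 in KO and -0.15 to 0.21 in WT, with no call.

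**Figure D4:**
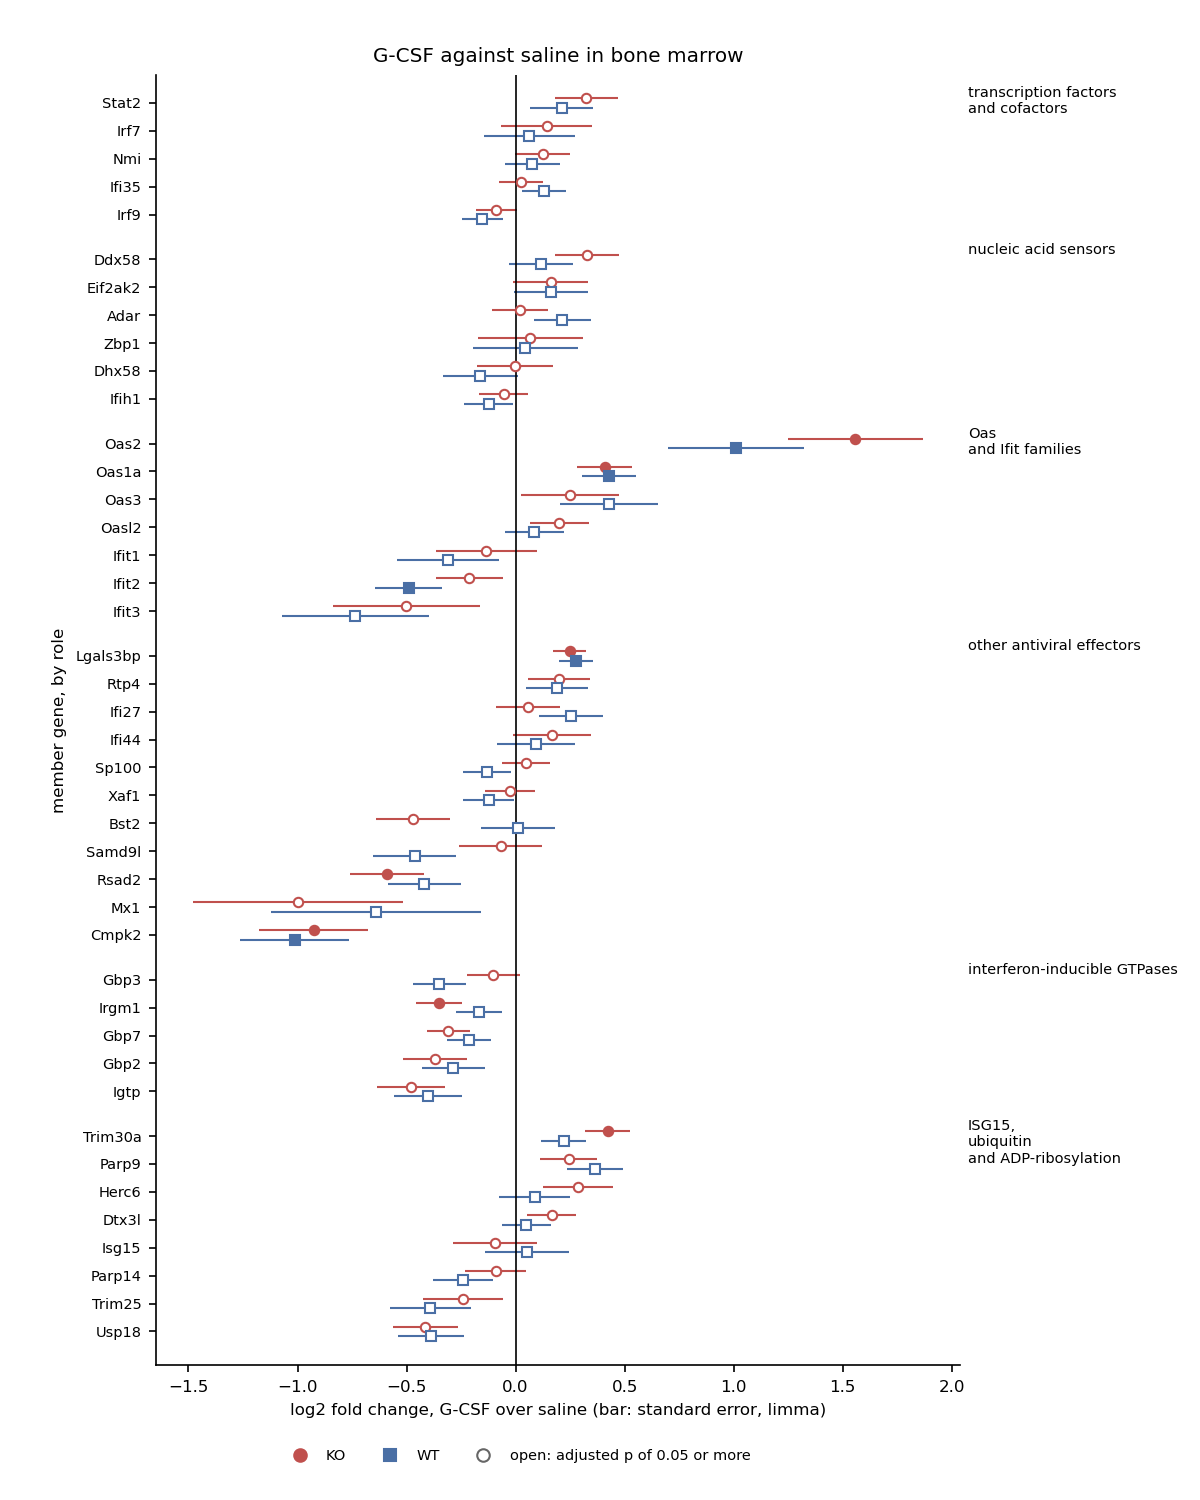
Log2 fold change of G-CSF over saline marrow for the 42 members, with the SE from limma as bars. Circles are KO and squares are WT, and filled symbols have an adjusted p under 0.05, which holds for 7 members in KO and 5 in WT, in both directions.

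The G-CSF calls depended on scaling and on single libraries. With libraries scaled to their listed genes, 2 members rose and 7 fell in KO, and 0 rose and 6 fell in WT, with medians of -0.06 and -0.05. All genes moved down as well under that scaling, with 589 higher and 799 lower in KO (median -0.07) and 556 higher and 1047 lower in WT (median -0.09). The KO count of 7 became 4 without KO saline replicate 1, 2 without KO saline replicate 3 and 3 without KO G-CSF marrow replicate 1. The WT count of 5 became 3 without WT saline replicate 1, 3 without replicate 2 and 2 without replicate 4. It became 2 without WT G-CSF marrow replicate 2 and 1 without replicate 3. In KO marrow, libraries of the same number deviated together, and with the number as a block 2 members were called, Oas2 (1.67 ± 0.22, limma adjusted p = 0.00108) and Rsad2 (-0.57 ± 0.14, adjusted p = 0.0346). A fit of the 2 KO marrow groups alone, with no block, also called 2. The interaction of genotype with G-CSF passed in 0 of 42 members and 0 of 13571 genes (0%), with 0 members and 970 genes at an unadjusted p under 0.05.

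The macrophage and monocyte sums given above were higher in G-CSF marrow than in saline marrow as well, and Cd68 rose by 1.59 ± 0.12 in KO and 1.81 ± 0.12 in WT. In saline marrow the T and NK cell sum was 86.5 to 107.9 CPM in KO and 77.3 to 105.3 in WT, and the erythroid sum 21.4 to 38.4 in KO and 16.5 to 41.7 in WT, all below G-CSF marrow of the same genotype. The stroma and endothelium sum was 174.3 to 212.9 CPM in KO G-CSF marrow and 158.7 to 200.1 in WT G-CSF marrow, against 107.3 to 159.9 in KO saline marrow and 90.0 to 136.7 in WT saline marrow, and its endothelial marker Pecam1 rose by 0.61 ± 0.16 in KO and 0.65 ± 0.16 in WT. Ltf, a neutrophil granule protein, rose in KO (2.58 ± 0.82) and had 0.40 ± 0.82 in WT. The part of these cells in the G-CSF values was not tested.

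KO against WT, the question of the genotype, gave no call among the members in spleen or in either marrow setting. In spleen 0 of 42 passed, where 0.0147% of all genes did, in G-CSF marrow 0 where 0.147% did, and in saline marrow 0 where 0.00737% did (limma). At an unadjusted p under 0.05 there were 7 members and 1598 genes in spleen, 4 members and 1738 genes in G-CSF marrow, and 2 members and 510 genes in saline marrow. The median log2 fold change of members was 0.02 in spleen, 0.15 in G-CSF marrow and 0.12 in saline marrow, against 0.00 over all genes in each.

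In spleen the smallest p belonged to Ifih1, which encodes the double-stranded RNA sensor MDA5. It had 6.55, 6.72, 6.91 and 7.02 log2 CPM in KO spleen, against 6.42, 6.30, 6.62 and 6.54 in WT spleen. The groups overlapped, with 1 KO library inside the WT range, and the log2 fold change was 0.33 ± 0.10 (limma adjusted p = 0.241). Dtx3l, a ubiquitin ligase that pairs with PARP9, had 7.04, 7.21, 7.45 and 7.57 in KO spleen, against 7.17, 6.81, 7.17 and 6.86 in WT spleen (0.31, adjusted p = 0.259). Ifit2 had 0.35, and on the other side Ifi35 had -0.23 and Nmi -0.26. In the authors' deposited table the same comparison called 2 members, Ifih1 (0.36, adjusted p = 0.0457) and Dtx3l (0.37, adjusted p = 0.0465), both higher in KO, where 2.22% of all genes were called.

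In G-CSF marrow, 39 of 42 members had a positive log2 fold change of KO over WT, against 49.9% of all genes. Gbp3 had the smallest p, at 0.40 ± 0.12 (limma adjusted p = 0.192), and each KO library (6.72 to 7.20) lay above each WT library (6.50 to 6.62). Ifit1 had 0.52, with overlapping libraries. Mx1 had the lowest value, at -0.47 ± 0.48 (adjusted p = 0.700). Bst2 had -0.46 ± 0.17 (adjusted p = 0.272), with 5.60, 5.41, 6.35 and 5.79 log2 CPM in KO, against 6.32, 6.09 and 6.32 in WT. Without the KO library at 6.35 (replicate 3) it was called, at -0.65 (adjusted p = 0.0226).

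In saline marrow, 35 of 42 were positive, against 49.7% of all genes. Lgals3bp had 0.22 ± 0.08, with 9.27, 9.17 and 9.23 log2 CPM in KO, against 9.10, 9.03, 8.95 and 8.93 in WT. Irgm1 had 0.25 ± 0.11 and Igtp 0.32, while Samd9l, a growth-restraining antiviral factor, had -0.11 and Trim30a -0.09. Every limma adjusted p was 0.9998 or more, and the authors' deposited table called 0 members and 0.00736% of all genes. The median of 0.12 was 0.05 without KO saline replicate 1 and 0.21 without KO saline replicate 2.

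The deposited values gave 25, 39 and 35 positive members in spleen, G-CSF marrow and saline marrow. These counts were 31, 37 and 28 with libraries scaled to their listed genes, and 19, 40 and 38 at equal medians. The median in spleen was -0.05 at equal medians, -0.01 without WT spleen replicate 2 and 0.13 without WT spleen replicate 1.

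Members also moved together between libraries of 1 group. In KO spleen, replicate 4 held the highest value of the group for 29 of 42 members, against 25.5% of all genes. In WT spleen, replicate 1 was highest for 33, against 27.1%, and replicate 2 lowest for 29, against 19.6%. In KO saline marrow, replicate 1 was highest for 29 (33.4% of all genes) and replicate 2 lowest for 30 (31.5%). In WT saline marrow the highest values were spread as 13, 10, 10 and 9, and replicate 4 was lowest for 18 (29.3% of all genes). In KO G-CSF marrow, replicate 3 was lowest for 24 (31.6%), and in WT G-CSF marrow, replicate 1 was highest for 25 (34.9%).

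Set against the mean of WT saline marrow, the median over the 42 members was 0.40, 0.43, 0.51 and 0.72 in the KO spleen libraries and 0.68, 0.34, 0.39 and 0.44 in the WT spleen libraries. It was 0.18, 0.22, 0.07 and 0.05 in KO G-CSF marrow and 0.07, -0.07 and -0.03 in WT G-CSF marrow. In saline marrow it was 0.27, -0.05 and 0.15 in KO and 0.08, 0.00, -0.01 and -0.07 in WT. All spleen medians lay above all marrow medians, and the KO and WT ranges overlapped in each of the 3 settings. Among KO libraries, those of saline marrow were spread more widely than those of G-CSF marrow.

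**Figure D5:**
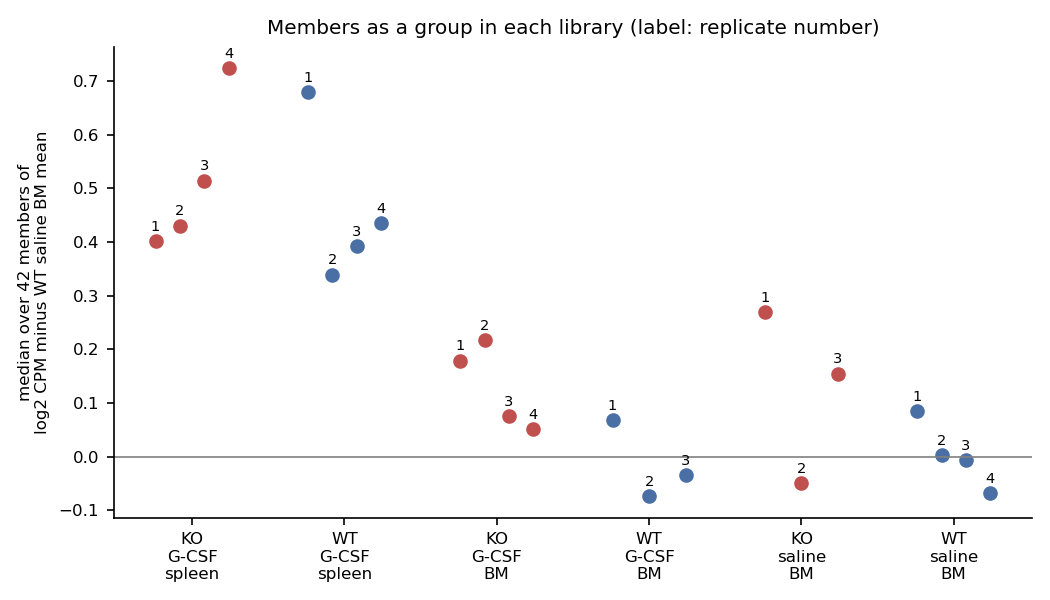
Median over the 42 members of log2 CPM minus the mean of WT saline marrow, in each of the 22 libraries (points, vertical axis), by group (horizontal axis, spleen groups first). The 8 spleen libraries lie between 0.34 and 0.72, and the 14 marrow libraries between -0.07 and 0.27.

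The receptor, kinases and upstream regulators were called in spleen at counts near the background. Of 32 listed, 26 were tested. In spleen against marrow 0 rose or fell in KO, where 0.951% of all genes rose and 0.317% fell. In WT 1 rose and 3 fell, where 6.93% of all genes rose and 6.83% fell. Those that fell in WT were Stat3 (-0.68), the main carrier of G-CSF receptor signals, Irf3 (-0.60), which starts interferon production, and Jak1 (-0.44, limma adjusted p = 0.0468). Tmem173, the DNA-sensing adaptor STING, rose (0.31). Ifnar1 had 0.11 in KO and -0.09 in WT, and Ifnar2 had -0.32 in KO and -0.38 in WT, with no call. Tyk2 had 0.07 in KO and -0.28 in WT (adjusted p = 0.0517), and 0.41 ± 0.09 for KO over WT in spleen (adjusted p = 0.117).

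With G-CSF, 5 of the 26 rose and 1 fell in KO, where 5.58% of all genes rose and 4.31% fell. In WT 4 rose and 1 fell, where 5.63% of all genes rose and 5.63% fell. Socs3, an inhibitor of cytokine receptors that G-CSF induces, rose by 4.23 ± 0.24 in KO and 5.23 ± 0.24 in WT. Myd88, a Toll-like receptor adaptor, rose by 0.72 in KO and 0.78 in WT, and Stat3 by 0.66 in KO and 0.93 in WT. The 1 that fell in both was Irf1, which interferon gamma induces, with -0.45 in KO and -0.33 in WT.

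A second list of 50 further interferon-induced genes, of which 45 were tested, gave 5 rises and 0 falls in KO spleen. Over all genes 0.951% rose and 0.317% fell there. In WT spleen the list gave 18 rises and 1 fall, where 6.93% of all genes rose and 6.83% fell. Its medians were 0.33 in KO and 0.35 in WT, against 0.01 and 0.02 over all genes. Slfn2, a Schlafen protein that keeps lymphocytes quiescent in mice, rose by 0.98 ± 0.21 in KO and 1.45 ± 0.23 in WT. Oas1g rose by 1.01 ± 0.20 in KO and 1.20 ± 0.21 in WT, although reads of Oas1a, Oas1g and other close copies may be split uncertainly. Shisa5, an endoplasmic reticulum protein, rose by 0.46 in KO and 0.62 in WT, and Ogfr, an opioid growth factor receptor, fell by 1.32 in WT. With G-CSF in marrow the list gave 2 rises and 7 falls in KO, where 5.58% of all genes rose and 4.31% fell. In WT it gave 4 rises and 5 falls, where 5.63% of all genes rose and 5.63% fell. Gbp4, a guanylate-binding protein, fell in both, with -1.79 in KO and -1.86 in WT. Cd274, which encodes PD-L1, rose by 0.40 in KO and 0.71 in WT, and Apobec3, an antiretroviral deaminase, by 0.72 in KO and 0.38 in WT.

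The authors' deposited table also compares spleen after G-CSF with saline marrow, which joins treatment and tissue. In KO it called 21 members higher and 0 lower, where 5.02% of all genes were higher and 3.74% lower. In WT it called 26 members higher and 0 lower, where 17.5% were higher and 17.1% lower. The median of the authors' log2 fold changes over the 42 members was 0.41 in KO and 0.41 in WT.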

How the data were processed

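The authors deposited 1 table of log2 CPM values for 22 libraries, made with the NucleoSpin RNA XS and SMARTer Ultra Low RNA kits per the labels' protocols, together with results of their own comparisons, whose log2 fold changes and adjusted p-values the authors deposited per gene. The submitters' processing notes name build mm10, the aligner STAR (2.5.1a), the counters featureCounts (1.4.6-p5, of Subread) and Salmon (0.8.2), and limma, edgeR and bcl2fastq. Which of them made the counts, and whether strand was used, is not given in the sources used here. The table has 13645 lines for 13594 genes, and 51 identical repeats were dropped. The deposited log2 values correspond to whole reads plus 0.5 in 100% of values (tolerance 0.05). Genes above 1 CPM in at least 3 libraries (13571) entered 1 limma fit (limma 3.58.1, R 4.3.3) with a mean per group, a variance trend and 16 residual degrees of freedom. Benjamini-Hochberg adjustment ran over all genes within each comparison, with a threshold of 0.05, and errors are SE unless said otherwise. The fit was checked on simulated data. Positions are from GENCODE on GRCm38 and promoter letters from RefSeq. Tables and figures used Python 3.11.15, pandas 2.3.3, NumPy 2.4.6 and matplotlib 3.10.9. A second worksheet was not used.

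The 42 members, the role groups and the other gene lists (upstream regulators, further interferon-induced genes, and markers of HSCs, macrophages and monocytes, neutrophils, plasmacytoid dendritic cells, B cells, T and NK cells, erythroid cells, and stroma and endothelium) were chosen with earlier results of these data known. In each comparison the members named are those past the threshold, up to 12 by smallest p per direction, or the 3 of smallest p per direction where fewer passed, some left out for length. Cd53, Ifnar1, Ifnar2, Jak1, Tyk2 and up to 4 genes of each other list join them. Some listed genes are not reported here and stay out of the list counts and sums. Values in every library are given for the 8 members of smallest p and for Irf7, Stat2, Irf9 and Isg15. Library values for Oas2, and for Cmpk2, Ifih1, Dtx3l, Bst2 and Lgals3bp in the groups compared, were chosen after they were seen. So were the members named beside a role group.

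Same-numbered libraries were checked for shared deviations over 9400 genes. In KO marrow after G-CSF and after saline the correlations were 0.204, 0.177 and 0.408, and a fit with the number as a block is given there. In the other comparisons at least 1 pair lay at or under 0.1. Alternatives were other scalings, a log2(CPM + 1) transform, other filters, sample weights, no variance trend, the compared groups alone, voom weights on the recovered reads, replicate blocks and leaving out each library.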

Additional observations from a re-analysis of the deposited data

Results flagged for a closer look

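A screen for a library far from the other 3 examined 60 groups of 4 libraries, and 2 stood apart. Chance gives about 1 in 20 such groups. Irf7 in WT spleen was lowest in replicate 2, at 7.50 log2 CPM, where the other 3 libraries had 7.97 to 8.004. Rtp4 in WT saline marrow was lowest in replicate 4, at 7.26 log2 CPM, where the other 3 had 7.46 to 7.50.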

How the results depend on the processing

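Leaving out 1 library at a time gave 5 to 12 members called between KO spleen and marrow, 18 to 24 in WT, 2 to 8 with G-CSF in KO, 1 to 5 with G-CSF in WT, 0 to 1 for KO against WT in G-CSF marrow, and 0 to 0 for KO against WT in spleen and in saline marrow and for both interactions. Without a variance trend the counts were 7 for KO spleen, 4 for G-CSF in KO and 3 for G-CSF in WT. Sample weights gave 7 for KO spleen and 1 for KO against WT in spleen, Ifih1. The compared groups alone gave 8 for KO spleen and 2 for G-CSF in KO, and the cause was not tested. Over all settings other than omissions the counts ran from 7 to 16 for KO spleen and from 19 to 28 for WT spleen. Calls kept in every setting and omission were Xaf1, Oas1a, Irf7 and Dhx58 in KO spleen, 16 of the 23 in WT spleen, and Oas2 with G-CSF in KO.

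With a replicate block over all groups the counts were 14 (KO spleen), 23 (WT spleen), 6 (G-CSF in KO), 5 (G-CSF in WT) and 0 elsewhere. A block by genotype and number gave 12 and 19 for the spleen comparisons. The block within KO marrow gave 2.

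Among the members named by rule in each comparison, Ifit2 and Adar, both uncalled, changed sign. Members not named also did, as the counts of positive members under each scaling show. Ifit2 for KO against WT in saline marrow was 0.0030 with sample weights and ran from -0.14 to 0.040 (without WT saline replicate 1) over the omissions. Adar for KO against WT in G-CSF marrow was 0.035 at equal medians, 0.022 with sample weights, and ran from -0.054 to 0.060 over the omissions (0.060 without WT G-CSF marrow replicate 1, 0.032 without KO G-CSF marrow replicate 3). Equal medians moved the all-gene median of spleen over marrow in WT to 0.13 and that of the members to 0.61. Precision is limited by 3 or 4 libraries a group, and by few reads for Mx1, Ifit3 and Cmpk2.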
